A study of Mus musculus with 7 samples.

Results

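The p53 pathway was examined in splenic type 1 conventional dendritic cells through 10 genes: Trp53 itself and 9 of its transcriptional targets, Cdkn1a, Mdm2, Ccng1, Trp53inp1, Sesn1, Phlda3, Zmat3, Aen and Plk2. The genes were taken by symbol from the array annotation, with 1 probe set per symbol. All 9 targets were found among the 19505 named genes, each by a single probe set. No probe set carried the symbol Trp53, so the level of Trp53 mRNA is not analysed here.

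p53 is a transcription factor that is kept scarce by the ubiquitin ligase MDM2 and is stabilised when DNA is damaged, when oncogenes are active or when metabolism is disturbed. It binds a DNA element made of 2 decamers and induces genes for cell cycle arrest, growth control, DNA repair and cell death, and also Mdm2, which closes a negative feedback loop. Dendritic cells that are fully differentiated divide little, and many p53 targets are also induced through other transcription factors.

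The cells, cDC1, are the dendritic cell subset that cross-presents antigen to CD8 T cells, and they were sorted from spleens of C57BL/6 mice carrying B16-OVA tumors, a mouse melanoma line that expresses ovalbumin. The series holds 3 arrays labelled WT and 4 labelled KO. KO mice carried a floxed Opa1 gene and a Cre recombinase driven by CD11c, a promoter active in dendritic cells as a class and in some other leukocytes, so the deletion is not limited to cDC1. OPA1 fuses the inner mitochondrial membrane, and the comparison asks what its loss does to cDC1. The labels give neither the age of the mice nor whether WT mice carried the floxed allele or the Cre, and nothing in them ties an array to its own mouse. The p-values therefore cover no more than the spread between arrays, part of which may be technical. Values are on a log2 scale and are given in the order of the replicate numbers, WT 1 to 3 and KO 1 to 4. A difference is KO minus WT.

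The arrays labelled WT 1 and WT 2 stood apart from the other 5, and every difference below that uses all 7 arrays rests in part on them. The mean of 10 melanocyte markers was 11.65 and 11.96 on WT 1 and WT 2 and 9.21 on WT 3, while the KO arrays had 7.11 to 8.07, with all 10 markers lower in KO and 9 of them without overlap. The mean of 10 cDC1 markers was 10.72, 8.93 and 11.63 in WT and between 11.67 and 11.79 in KO. Cd8a, a marker of resident cDC1, fell furthest below KO, at 7.89 and 6.96 on the first 2 WT arrays. Each of these markers was higher on WT 1 than on WT 2. Xcr1 read 12.12 on WT 1 and 7.97 on WT 2, and Itgae 11.45 and 8.37. On WT 1 Itgae lay inside its KO range of 11.03 to 11.66. Markers of other cells also varied: the mean of 5 cDC2 markers was 8.09, 10.35 and 8.90 in WT and 7.76 to 8.67 in KO, that of 6 monocyte and macrophage markers 8.52, 9.62 and 9.16 against 8.15 to 8.66, and that of 6 T cell markers 7.67, 7.84 and 8.49 against 7.59 to 8.26. Opa1 itself read 8.14, 8.80 and 9.15 in WT and 7.70, 7.10, 6.85 and 8.24 in KO, so that the arrays labelled KO 4 and WT 1 overlapped (limma, adjusted p = 0.223), and groups are named here only as labelled. The part of these marker differences in the values of the p53 targets was not tested. In bulk samples, fewer cells of a type and less RNA per cell cannot be told apart.

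The element that p53 binds was looked for in the 250 bases before the annotated starts of the members. The best matches are shown because those of Cdkn1a and Ccng1 have equal numbers of mismatches while their values differed. RefSeq sequences (GRCm38.p6) were given for 8 of the 10 genes, in 11 start windows. The search used the p53 consensus element of 20 bases without a spacer, on both strands, and required the central C and G of each decamer. Capitals mark the 20 bases of the best match.
Cdkn1a, chr17:29090908-29090967, plus strand: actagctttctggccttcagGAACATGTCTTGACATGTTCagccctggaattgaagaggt
Ccng1, chr11:40755442-40755501, minus strand: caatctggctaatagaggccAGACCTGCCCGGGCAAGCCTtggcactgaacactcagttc
Sesn1, chr10:41887246-41887305, plus strand: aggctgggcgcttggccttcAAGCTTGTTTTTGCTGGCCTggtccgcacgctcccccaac
Aen, chr7:78895937-78895956, plus strand: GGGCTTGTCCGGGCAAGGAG

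The Cdkn1a match, 51 to 32 bases before the upstream of its 2 annotated starts, and the Ccng1 match, 195 to 176 bases before its start, each deviated from the consensus at 1 of 20 bases. The deviating base was an outer base of a decamer for Cdkn1a and lay among the central bases of a decamer for Ccng1. Matches with at most 1 mismatch were present in 19 of 27025 genes, or 0.0703%. The Sesn1 and Aen matches had 3 mismatches each, and so had one before Trp53, a level reached by 1.36% of genes. Mdm2, Phlda3 and Plk2 had no match with 3 or fewer mismatches in this window. A match describes letters only, and p53 elements of many targets lie in introns or farther upstream.

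No member passed the threshold between KO and WT over all genes (limma with Benjamini-Hochberg adjustment, smallest adjusted p = 0.223), and the same held for every named gene, a background of 0% called. At an unadjusted p under 0.05 there were 2 members, Cdkn1a and Plk2, both lower, where 10.6% of all genes were lower. The 9 members fell into 3 kinds by their values. Cdkn1a, Plk2 and Phlda3 had differences of -1.46 to -1.23, with large spread among the WT arrays. Sesn1 and Trp53inp1 were highest on WT 3 and spanned 1.23 and 2.06 log2 among the WT arrays, with differences of -0.21 and -0.01. Mdm2, Ccng1, Zmat3 and Aen had differences between -0.18 and 0.13.

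**Figure D1:**
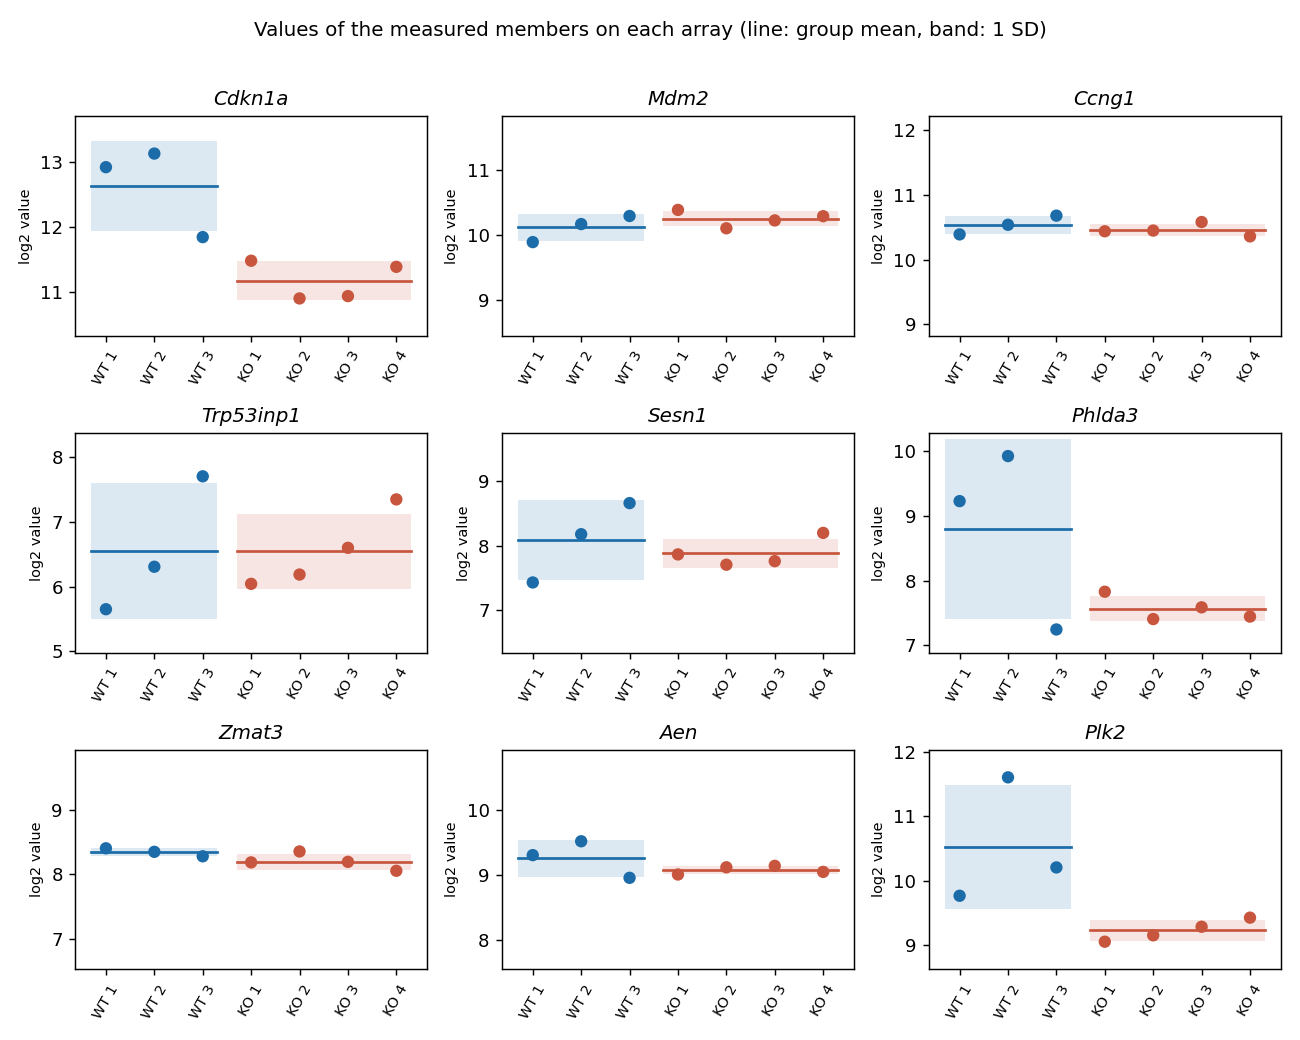
Log2 value of each of the 9 measured members on the 7 arrays (blue, WT 1 to 3; red, KO 1 to 4), with the group mean as a line and 1 SD as a band; every panel spans the same number of log2 units. Cdkn1a and Plk2 are the members whose WT points all lie above all KO points, and Phlda3 is high on WT 1 and WT 2 only.

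Cdkn1a encodes p21, the inhibitor of cyclin-dependent kinases through which p53 arrests the cell cycle. It read 12.93, 13.14 and 11.84 in WT and 11.48, 10.90, 10.93 and 11.38 in KO. All WT arrays lay above all KO arrays, and WT 3 lay nearer to the KO arrays than to WT 1 and WT 2. The means were 12.64 ± 0.69 (SD, n = 3) and 11.17 ± 0.30 (SD, n = 4), a difference of -1.46 with a standard error of 0.313 (95% confidence interval -2.19 to -0.74), or 2.76-fold. It did not pass correction (limma, adjusted p = 0.223). An exact two-sided permutation test of this gene alone, made two-sided by doubling the smaller tail, gave p = 0.0571. With that doubling it is the smallest p that 35 splits of 7 arrays allow. Only 1.78% of genes had a lower difference.

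Plk2, a polo-like kinase induced by p53 and by growth factor or synaptic stimulation in other cells, read 9.77, 11.60 and 10.21 in WT and 9.06, 9.16, 9.29 and 9.43 in KO. The groups did not overlap, and the excess was carried most by WT 2. The difference was -1.29 with a standard error of 0.385 (95% confidence interval -2.18 to -0.40; limma, adjusted p = 0.223; exact permutation p = 0.0571). Unlike Cdkn1a, its lowest WT array was WT 1, and WT 3 stood 0.97 above the KO mean while WT 1 stood 0.54 above it. The KO arrays themselves spanned 0.37. The cDC2 and macrophage marker means given above were likewise highest on WT 2 and lowest among the WT arrays on WT 1. Irf4, Itgam, Cd209a, Adgre1, Csf1r and Cd14 had this order among the WT arrays. The other markers did not: Sirpa and Mertk were lowest on WT 3, Clec4a4 and Vcam1 highest on WT 3, and Ly6c2 highest on WT 1. The part of these markers in the values of Plk2 was not tested.

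Phlda3 encodes a pleckstrin homology domain protein that competes with AKT for membrane lipids and so restrains AKT. It read 9.23, 9.93 and 7.24 in WT and 7.83, 7.41, 7.59 and 7.44 in KO. WT 1 and WT 2 were the high arrays, and WT 3 lay below every KO array, so the groups overlapped. Its WT standard deviation of 1.39 was the largest of the 9 members, against 0.19 in KO, and the difference of -1.23 had a 95% confidence interval of -2.50 to 0.04 (limma, adjusted p = 0.262).

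Cdkn1a and Plk2 were thus 2 of 9 members with all KO arrays below all WT arrays, and 0 of 9 had all KO arrays above. Over all genes 5.92% lay wholly below and 7.85% wholly above. Of the members 8 of 9 had a lower mean in KO, among them Trp53inp1 at -0.01, against 40.1% of all genes. The members were chosen with earlier results of these data known, so this count only describes them. That count was 7 of 9 after median centring, where Trp53inp1 turned and 32.0% of all genes were lower, 6 of 9 without WT 3 (40.9% of all genes) and 5 of 9 with array weights (42.7%). The median difference of the members was -0.18 against 0.06 over all genes. It moved away from 0 without WT 1 (-0.46) and without KO 4 (-0.28). It moved toward 0 with quantile normalization (-0.11), with median centring (-0.12) and without WT 2 (-0.14). A difference of -1 or lower was found in 3 members and in 3.61% of all genes.

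Mdm2, the ubiquitin ligase that both answers to p53 and degrades it, read 9.89, 10.17 and 10.30 in WT and 10.39, 10.11, 10.23 and 10.29 in KO. The values interleaved, with WT 1 alone below the KO range, and the difference was 0.13 (95% confidence interval -0.16 to 0.43; limma, adjusted p = 0.55). Ccng1, cyclin G1, which recruits a phosphatase to MDM2, read 10.39, 10.54 and 10.68 in WT and 10.44, 10.45, 10.58 and 10.36 in KO. All 7 values lay within 0.32 of each other, and the difference was -0.08 (95% confidence interval -0.33 to 0.17). These intervals leave out a difference of the size found for Cdkn1a. The Ccng1 and Cdkn1a matches in the sequences above had 1 mismatch each, and their part in these values was not tested. Whether the difference of Cdkn1a exceeded that of Ccng1 was not tested.

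Zmat3, a zinc finger RNA-binding protein that regulates splicing and mRNA stability, read 8.40, 8.35 and 8.28 in WT and 8.19, 8.35, 8.19 and 8.06 in KO, a difference of -0.15 (95% confidence interval -0.38 to 0.09). It was the member with the smallest WT spread (SD 0.06, n = 3) and the only one of 9 whose WT standard deviation was under that in KO. Aen, an exonuclease that contributes to apoptosis after DNA damage, read 9.31, 9.52 and 8.95 in WT and 9.01, 9.12, 9.14 and 9.05 in KO. Its pattern was that of Phlda3 at a smaller scale: WT 1 and WT 2 exceeded the whole KO range and WT 3 was under it, and the difference was -0.18 (95% confidence interval -0.51 to 0.14). It was -0.34 without WT 3 (limma, adjusted p = 0.0631) and -0.05 without WT 2.

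Sesn1, a sestrin that restrains mTORC1 and limits oxidative stress, read 7.43, 8.18 and 8.66 in WT and 7.86, 7.70, 7.76 and 8.20 in KO. WT 1 lay below every KO array and WT 3 above every one, which left a difference of -0.21 (95% confidence interval -0.84 to 0.42; limma, adjusted p = 0.668). Trp53inp1, a nuclear and autophagy protein that promotes p53-dependent cell death, read 5.65, 6.31 and 7.71 in WT and 6.04, 6.19, 6.60 and 7.35 in KO. As for Sesn1, WT 3 was the highest and WT 1 the lowest of the WT arrays, and KO 4 the highest KO array. The means of the T cell markers and of 5 NK cell markers were also highest on WT 3 and lowest on WT 1 among the WT arrays, and highest on KO 4 among the KO arrays. The NK cell mean spanned more, at 6.58, 6.67 and 8.16 in WT and 8.02, 6.61, 7.74 and 8.06 in KO. Of the NK cell markers only Ncr1 followed the order of the means. Within the groups Prf1 was highest on WT 2, Klrb1c on KO 3, and Gzma and Eomes on KO 1. Of the T cell markers Cd3d, Cd3g and Cd4 followed it, while Cd3e, Lat and Trat1 were lowest on WT 2 in WT. The lowest KO array was KO 1 for Trp53inp1 but KO 2 for Sesn1 and for the T cell and NK cell means. The means of 5 B cell and of 4 neutrophil markers were highest on WT 3 and KO 4 too, but lowest on WT 2 among the WT arrays. The part of these markers in the values of Sesn1 and Trp53inp1 was not tested. On 4 of the 7 arrays Trp53inp1 did not exceed the median of that array's negative control probe sets, so its low values are close to background. The difference was -0.01 (95% confidence interval -1.16 to 1.14).

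**Figure D2:**
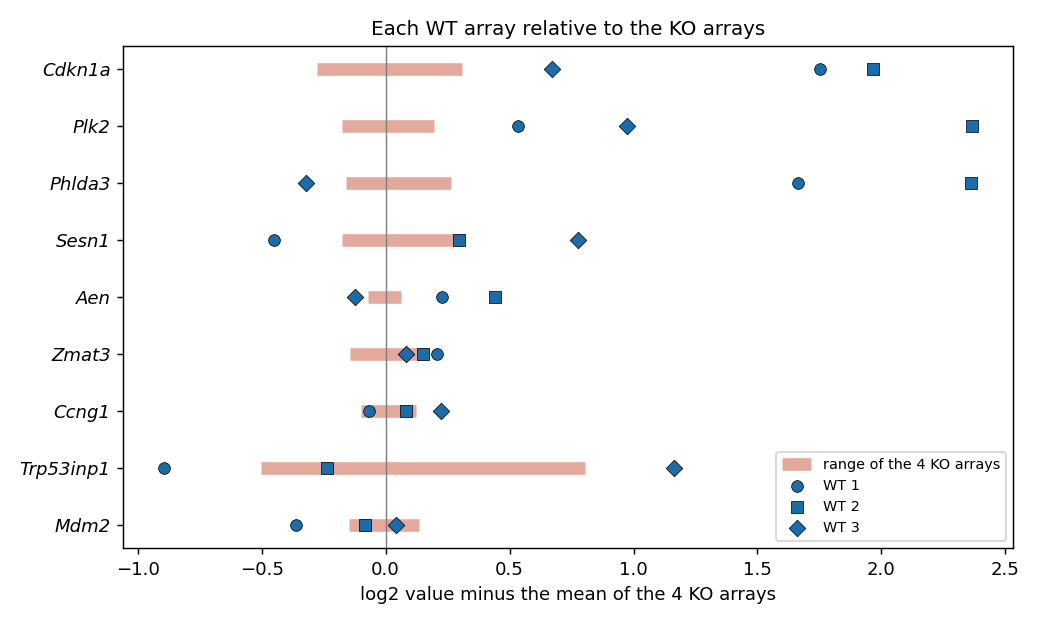
Each WT array (circle, WT 1; square, WT 2; diamond, WT 3) as log2 value minus the mean of the 4 KO arrays, with the range of the KO arrays as a bar, for the 9 measured members ordered by their difference. WT 3 lies to the right of the KO range for Cdkn1a, Plk2, Sesn1, Ccng1 and Trp53inp1 and to the left for Phlda3 and Aen.

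The WT arrays therefore differed among themselves across the pathway. WT 1 and WT 2 both lay above all KO arrays for 4 of 9 members, Cdkn1a, Plk2, Phlda3 and Aen, against 20.6% of all genes, and both lay below all KO arrays for 0 of 9, against 25.4%. WT 3 lay above all KO arrays for 5 of 9 members, Cdkn1a, Plk2, Sesn1, Trp53inp1 and Ccng1, against 18.1% of all genes, and below all for Phlda3 and Aen, against 24.2%. Cdkn1a and Plk2 are the members found in both sets. The WT standard deviation was above that in KO for 8 of 9 members and for 66.7% of all genes. The median standard deviations were 0.62 in WT and 0.16 in KO for the members, and 0.20 and 0.14 for all genes.

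Left out in turn, the array labelled WT 3 was the one that decided calls. Without it Cdkn1a (-1.86, adjusted p = 0.000182), Phlda3 (-2.01, adjusted p = 0.000167) and Plk2 (-1.45, adjusted p = 0.0287) passed in limma, 3 of 9 members, all lower, where 25.3% of all genes passed and 13.8% were lower, so the members' count is read against a broad difference of WT 1 and WT 2 from KO. Phlda3 moved by more than 1.5 times with it, and also without WT 2 (-0.67). Plk2 read -0.75 without WT 2. Without WT 1 and WT 2 together, a fit in which the spread comes from the KO arrays alone, 0 of 9 members and 0% of all genes passed (limma; 4 members and 5.92% of all genes at an unadjusted p under 0.05). Those 4 members were Plk2 at -0.97 (95% confidence interval -1.37 to -0.58), Sesn1 at -0.78, Cdkn1a at -0.67 and Trp53inp1 at -1.16. In that fit Phlda3 read 0.32 and Aen 0.12, both turned in direction.

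**Figure D3:**
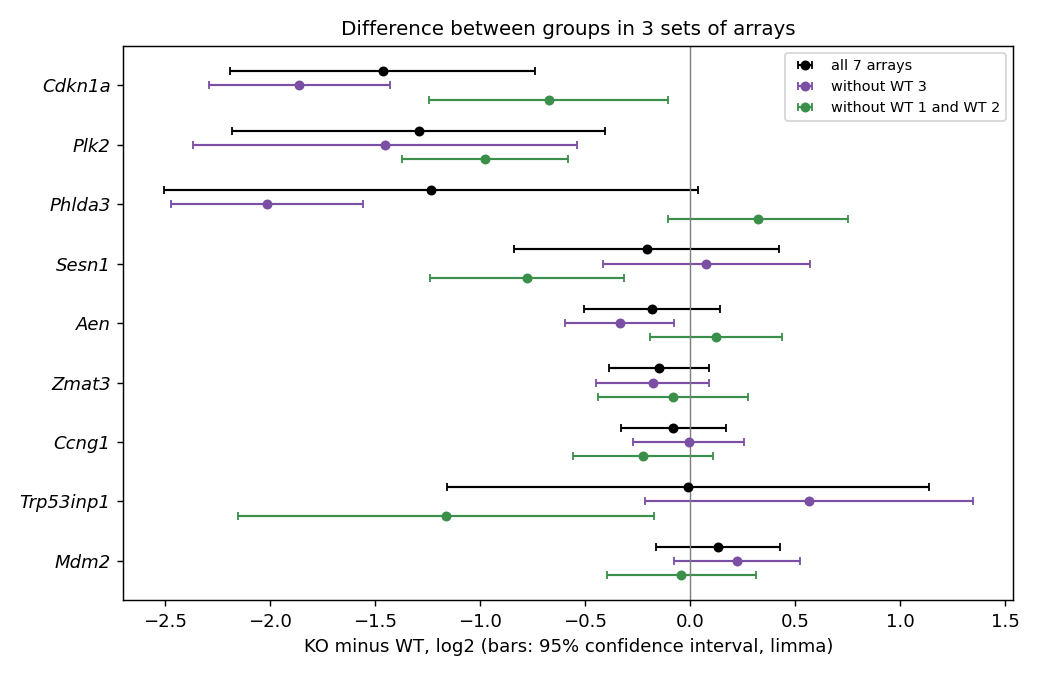
KO minus WT in log2 with 95% confidence intervals from limma for the 9 measured members, with all 7 arrays (black), without WT 3 (purple) and without WT 1 and WT 2 (green). The points of Cdkn1a, Plk2, Zmat3 and Ccng1 stay below 0 in all 3, at -1.46, -1.86 and -0.67 for Cdkn1a, while Phlda3 goes from -2.01 to 0.32. For Zmat3 and Ccng1 all 3 intervals include 0, and Ccng1 is at -0.0073 without WT 3.

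A further 33 genes induced by p53 were listed, of which 30 were measured (Bax, Gdf15 and Fdxr had no named probe set). None passed over all genes (limma, smallest adjusted p = 0.223); 17 of 30 had a lower and 13 a higher mean in KO (15 of 30 lower after median centring or quantile normalization), and the median difference was -0.07, or 0.06 without WT 1 and WT 2. At an unadjusted p under 0.05, 6 were lower and 2 higher, against 10.6% and 8.98% of all genes. Among those lower, Ephx1, the microsomal epoxide hydrolase, read 10.65, 11.07 and 8.86 in WT and 8.56, 8.37, 9.24 and 9.12 in KO. WT 1 and WT 2 were again the high arrays, with WT 3 inside the KO range. Ei24, an endoplasmic reticulum protein of autophagy, differed by -0.58 and Sesn2, the stress-inducible sestrin, by -0.42, each with overlap.

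Rps27l, a ribosomal protein paralog, read 12.29, 12.34 and 12.00 in WT and 11.94, 11.92, 11.92 and 11.87 in KO. It was the only gene of that list with all KO arrays below all WT arrays, at a difference of -0.29. Triap1, an inhibitor of apoptosis that carries lipid within mitochondria, was the only one with all KO arrays above, at 9.20, 8.93 and 9.39 in WT and 9.49, 9.50, 9.61 and 9.63 in KO. Over all genes 5.92% lay wholly below and 7.85% wholly above, so 1 of 30 either way did not exceed the background. The difference of Triap1 was 0.39 (95% confidence interval 0.09 to 0.68; limma, adjusted p = 0.223).

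For other targets WT 1 and WT 2 were the low arrays. Fbxw7, a ubiquitin ligase subunit, read 7.36, 7.53 and 8.96 in WT and 8.65 to 8.93 on the KO arrays. The antiproliferative gene Btg2 read 11.75, 11.34 and 12.42 in WT and 12.17 to 12.50 in KO, and Pmaip1, the BH3-only protein NOXA, 11.77, 11.66 and 12.58 against 12.36 to 12.67. On WT 3 these genes lay within the KO range or, for Fbxw7, just above it. On both WT 1 and WT 2, 12 of 30 targets lay above all KO arrays and 7 of 30 below, against 20.6% and 25.4% of all genes. The share of targets below did not exceed that of all genes.

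Of 25 regulators and relatives of p53, all measured, 21 had a higher and 4 a lower mean in KO, where 59.9% of all genes were higher, with a median difference of 0.17, and none passed (limma, smallest adjusted p = 0.223; 1 lower and 4 higher at an unadjusted p under 0.05, against 10.6% and 8.98% of all genes). The median of that list was 0.32 without WT 3 and -0.05 without WT 1 and WT 2. The kinase gene Chek2 read 8.25, 8.49 and 8.77 in WT and 8.97, 8.84, 8.69 and 8.93 in KO, a difference of 0.35. Usp7, which removes ubiquitin from MDM2 and p53, read 11.67, 11.74 and 12.56 in WT and 12.37 to 12.59 in KO, and the acetyltransferase gene Crebbp differed by 0.37. Trp73, a p53 family member, had all KO arrays above all WT arrays (0.38), but at 5.24 ± 0.15 (SD, n = 3) and 5.62 ± 0.16 (SD, n = 4) it was under the negative control medians of 6.19 to 6.88. Daxx, a chromatin and MDM2 cofactor, was the one with all KO arrays below, at 10.98, 10.99 and 10.37 in WT and 10.19 to 10.35 in KO. That made 1 of 25 in each direction, where 5.92% of all genes lay wholly below and 7.85% wholly above. Trp53bp1, Mre11a and Chek1, which act in DNA break repair and checkpoint control, differed by -0.08, -0.11 and -0.06.

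Paralogs of the members were read beside them. Phlda1, of the family of Phlda3, read 10.97, 11.81 and 9.29 in WT and 8.36 to 8.46 on the KO arrays, a difference of -2.27 (limma, adjusted p = 0.223) without overlap. Here, unlike for Phlda3, WT 3 lay above the KO arrays too. Plk1, the mitotic polo-like kinase, read 11.59, 11.32 and 10.29 in WT and 9.80 to 10.15 in KO, a difference of -1.14, and Isg20, an exonuclease related to Aen, differed by -1.03, both without overlap. Among those higher, Mdm4, the partner of MDM2, read 8.70, 8.75 and 9.67 in WT and 9.42 to 9.75 in KO. Cdkn1c, a cyclin-dependent kinase inhibitor of the family of Cdkn1a, differed by 0.26. Zmat4, related to Zmat3, differed by 0.51 without overlap, at levels of 5.63 to 6.57, near the negative control medians. All KO arrays lay below all WT arrays for 3 of 17 paralogs and above for 2, against 5.92% and 7.85% of all genes. Of 17 paralogs 9 had a lower and 8 a higher mean in KO, with a median difference of -0.01 (0.05 after median centring, which moved the median of all genes from 0.06 to 0.12), and none passed (limma, smallest adjusted p = 0.223; 6 lower and 2 higher at an unadjusted p under 0.05, against 10.6% and 8.98% of all genes).

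**Figure D4:**
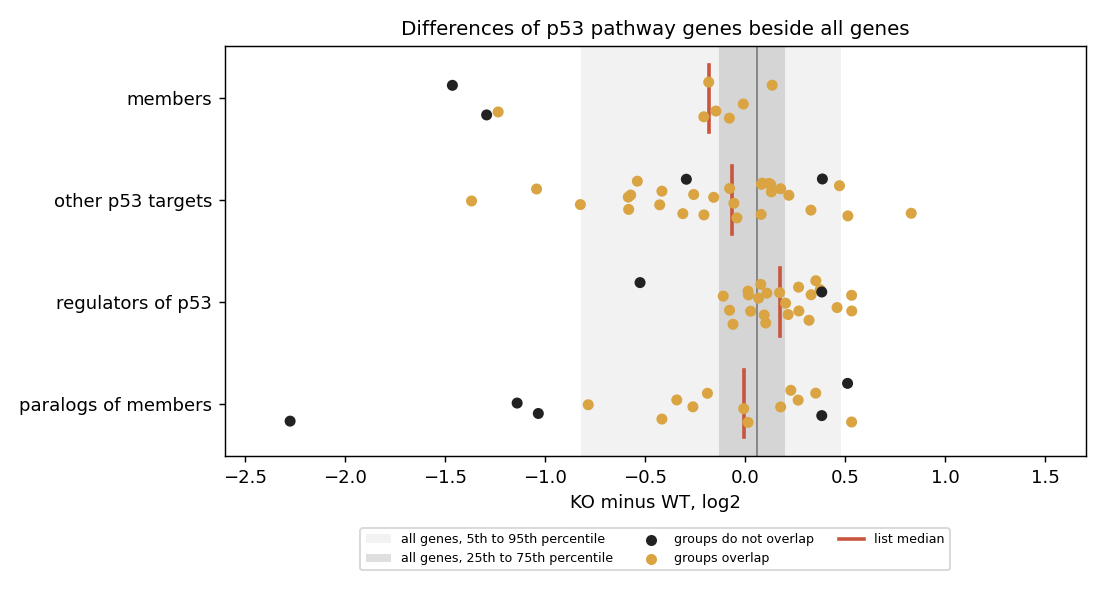
KO minus WT in log2 for the 9 measured members and for the other p53 targets (30), regulators of p53 (25) and paralogs of the members (17), each point a gene (black, groups do not overlap; yellow, groups overlap; red line, list median), over grey bands for all genes. Genes that belong to several lists are plotted in each. The members' median lies at -0.18 and that of the regulators at 0.17, where all genes have 0.06, and 2 of the 9 members are black.

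The genes whose values over the 7 arrays lay closest to Cdkn1a, each gene centred on its own mean, were Fkbp11, Tinagl1, Bcl2l1, Lpcat2 and Rad18, with root mean square distances of 0.071, 0.157, 0.160, 0.163 and 0.166 log2. Fkbp11, the closest, encodes a prolyl isomerase of the secretory pathway and read 8.82, 8.995 and 7.62 in WT and 7.47, 6.88, 6.85 and 7.35 in KO. Its likeness to Cdkn1a, including the higher values on KO 1 and KO 4, follows from how it was picked. None of the other members was among these 5, which were picked from 19505 genes.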

How the data were processed

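Expression was measured on Affymetrix whole-transcript arrays, 3 WT and 4 KO. The authors deposited 1 table of 28846 rows on a log2 scale, for which the submitters' processing notes name RMA and Affymetrix Expression Console 1.1. RMA compresses small signals toward background, and the number of arrays limits precision. The annotation gave 1 symbol to 19572 of 22206 transcript probe sets and none to the other 2634, and all 19572 matched the reference by gene identifier. Of probe sets sharing a symbol the one with the highest mean was kept, leaving 19505 genes.

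The groups were compared in limma 3.58.1 under R 4.3.3 (lmFit and eBayes without covariates), adjusted by Benjamini-Hochberg over all genes at 0.05, after being tested on simulated data. Single members also had exact permutation tests, made two-sided by doubling the smaller tail. Lists are described by counts beside those of all genes. The lists share genes: Trp63, Trp73 and Mdm4 are among both regulators and paralogs, and Sesn2 and Plk3 among both other targets and paralogs.

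The members and lists were chosen with earlier results of these data known. Named genes are the 9 measured members, the 4 genes with the smallest p per direction in each other pathway list, the 5 closest to Cdkn1a, and Opa1. The motif search was added after values had been seen. Alternatives were leaving out arrays, the replicate number as a block, 2 scalings, a dim filter (mean under 8.09), other variance models, array weights and another probe set rule. For the 3 replicate numbers shared by the groups, deviations across genes were hardly correlated between the WT and the KO array (-0.04, 0.05 and -0.02). With WT 1 and WT 2 apart from WT 3, these correlations cannot exclude a pairing.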

Additional observations from a re-analysis of the deposited data

Results flagged for a closer look

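Among the genes named here, 1 had a KO array far from the others of its group: Usp7 read 12.37 on KO 1, while the other KO arrays lay between 12.56 and 12.59. About 1 in 20 groups of this size is marked by chance, and 37 genes were examined. No measured member of the p53 target set was marked in the KO group, and the 3 WT arrays were not examined in this way.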

How the results depend on the processing

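Under 13 of 15 alternatives limma called 0 members. When arrays were left out in turn, counts of called genes ran from 0 to 4931 over all genes, 0 to 3 for the members, 0 to 15 for other p53 targets, and 0 to 9 for both regulators and paralogs, the upper values all without WT 3. Array weights called 4458 genes, 2 members (Cdkn1a and Phlda3), 14 other targets, 9 regulators and 7 paralogs. Cdkn1a (-1.86 to -0.67), Plk2 (-1.67 to -0.75) and Zmat3 (-0.20 to -0.08) kept their direction under every alternative. With the replicate number as a block 0 members and 0 of all genes passed, and Mre11a read 0.0215. The differences of dim genes such as Trp53inp1 are limited by background.

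Without WT 1 and WT 2 the sign turned for Mdm2 (-0.0419), Phlda3 (0.32), Aen (0.12), Fbxw7 (-0.19), Btg2 (-0.0713), Pmaip1 (-0.11), Usp7 (-0.0347), Crebbp (-0.0011) and Mdm4 (-0.10). With array weights it turned for Ccng1 (0.0302), Trp53inp1 (0.57), Sesn1 (0.17), Mre11a (0.0688) and Chek1 (0.0776), with quantile normalization for Trp53bp1 (0.0118) and Chek1 (0.0346), and with median centring for Trp53inp1 (0.0486). With single arrays left out, Trp53inp1 ran from -0.46 to 0.57, Sesn1 from -0.54 to 0.078, Mre11a from -0.25 to 0.0669 and Chek1 from -0.18 to 0.0921. The cause of these turns was not tested.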
